A study of Mus musculus with 56 samples.

Results

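Spp1 or Gpnmb positive microglia of the postnatal cortex were chosen by their measured UMIs of these and of gate genes. They are the cells of the 6 libraries from mice at postnatal day 9 (P9) with at least 500 genes, under 10% mitochondrial UMIs, at least 1 UMI of the microglial gene C1qa, fewer than 8 UMIs in sum of 6 genes of border-associated macrophages (Pf4, Lyve1, F13a1, Ms4a7, Cbr2 and Cd163), and at least 1 UMI of Spp1 or Gpnmb. A UMI is a molecular tag that counts 1 captured RNA molecule once. The rule found 409 such cells among 8867 gated P9 microglia, 4.61% of them, and the other 8458 cells had neither gene. The whole deposited matrix held 15507 barcodes, 9542 of them from P9. All 6 P9 libraries came from cortex of B6 mice by the 10x 3' assay after sorting for CD11b and CD45. They comprised 2 wild-type libraries, 2 labelled ST2 Het and 2 labelled ST2 KO, where ST2 is the receptor of the cytokine IL-33, encoded by Il1rl1, and the heterozygotes were littermate controls. None received a treatment. The sample titles give the wild-type P9 and P28 libraries one date and the Het and KO libraries another, so wild type and date cannot be told apart. The barcode names of ST2 Het library 1 and ST2 KO library 1 carry the word redo, which the labels do not explain. Independent bulk Smart-seq2 libraries of cortical microglia from mice of the B6/C57 background at P9, sorted for high (n = 10) or low (n = 8) staining with TMRM, a dye that collects in mitochondria with a membrane potential, were compared with them. A second independent set was 16 bulk libraries from carriers of the Mapttm1(EGFP)Klt allele on a B6/129 background, in which EGFP is driven by the Mapt (tau) locus in neurons. Their cortical microglia were sorted into GFP-positive and GFP-negative cells (n = 8 each), at day 10 per the sample labels and day 9 per the series' design.

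Spp1 encodes osteopontin, a secreted phosphoprotein that binds integrins, and Gpnmb encodes a transmembrane glycoprotein found in lysosomes and melanosomes. In the early postnatal brain both mark amoeboid, phagocytic microglia of developing white matter, which also make the growth factor Igf1 and the lipoprotein lipase Lpl. Resting microglia instead express the ADP receptor P2ry12 and the membrane protein Tmem119. On GRCm38 (GENCODE vM21), Spp1 spans chr5:104435118-104441050 and Gpnmb chr6:49036546-49070929, both on the plus strand.

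The positive cells were present in every P9 library at a low share. They were 132 of 2613 (5.05%, 4.24 to 5.96%) and 116 of 2275 (5.10%, 4.23 to 6.08%) of the wild-type cells, with 95% Clopper-Pearson intervals that cover counting error only. In the ST2 Het libraries they were 41 of 1261 (3.25%, 2.34 to 4.39%) and 51 of 1255 (4.06%, 3.04 to 5.31%), and in the ST2 KO libraries 35 of 657 (5.33%, 3.74 to 7.33%) and 34 of 806 (4.22%, 2.94 to 5.85%). The 6 shares lay between 3.25 and 5.33%, with intervals that overlapped between genotypes. By the same gate, the 2 wild-type P28 libraries held 21 of 2874 (0.731%, 0.453 to 1.11%) and 9 of 2935 (0.307%, 0.140 to 0.581%), both below each P9 library, at a median of 2309.5 and 2236 UMIs per cell against 3800.0 and 4038 in the P9 wild-type libraries. After each cell was thinned to 1000 UMIs, 1.65 and 1.76% of wild-type P9 cells and 0.280 and 0.103% of P28 cells remained positive, so the order of the ages held at equal depth. With 2 libraries an age, an exact permutation test cannot give a p under 0.333, and no test was made.

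**Figure D1:**
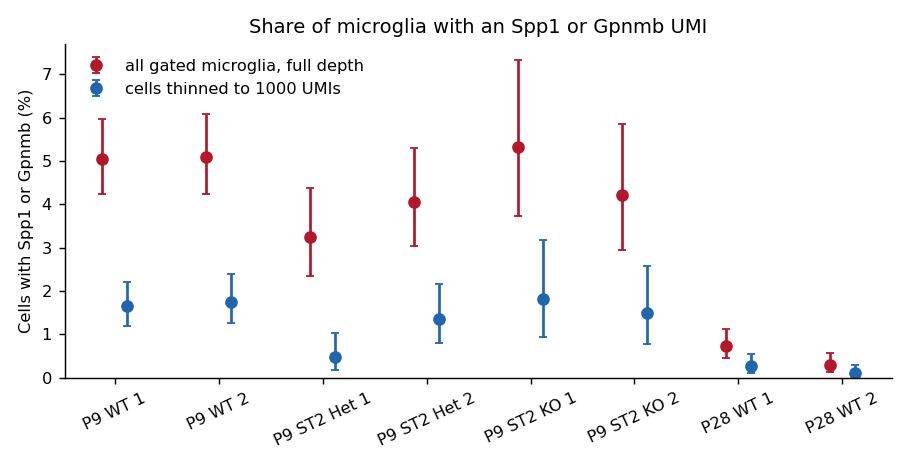
Percent of gated microglia with at least 1 UMI of Spp1 or Gpnmb in each 10x library, at full depth (red) and after thinning each cell to 1000 UMIs (blue); bars are 95% Clopper-Pearson intervals. The 6 P9 libraries sit between 3.25 and 5.33% at full depth and the 2 P28 libraries at 0.731 and 0.307%.

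Most positive cells held very little of either transcript. Of the 409, 282 (68.9%) had exactly 1 UMI of Spp1 and Gpnmb together, 75 had 2 to 4, and 52 had 5 or more. These 52 cells were found in all 6 libraries and carried 79.8% of the Spp1 UMIs. The fullest cell held 476 Spp1 UMIs, and the highest Gpnmb count in 1 cell was 39. In each P9 library a single cell supplied 24 to 47.6% of all Spp1 UMIs. Spp1 was detected in 394 positive cells and Gpnmb in 41, of which 26 had both, 368 had Spp1 alone and 15 had Gpnmb alone. Spp1 and Gpnmb chose the cells, so their levels are a description. Pooled over libraries, positive cells were deeper, with a median of 5053 UMIs against 4481.5 in cells with neither. Detection of any rare transcript is less likely in shallower cells. Within libraries the gap was widest in wild type (4549.5 against 3765 and 5210.5 against 3982 UMIs) and absent in ST2 KO library 2 (5260.5 against 5275.5 UMIs). Free RNA in droplets can also give single UMIs. Its share could not be set from a cell type that lacks these genes, since only 6 P9 cells had at least 2 UMIs of the endothelial genes Cldn5 and Flt1, and 1 of them was positive. At the border gate, 3 positive and 24 negative cells had 6 or 7 UMIs of the 6 border genes, just inside the limit.

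Most cells with Gpnmb also had Spp1, whereas most cells with Spp1 had no Gpnmb. Of 41 Gpnmb-positive cells 26 (63.4%) also had Spp1, against 2 of 41 (4.88%) among Gpnmb-negative microglia matched within library on total UMIs. The share was higher in 5 of 6 libraries. Both genes chose the cells, and 4 of the libraries had only 2 to 4 Gpnmb-positive cells, so this is a description with no test. The exception was ST2 Het library 2, where 0 of 2 Gpnmb-positive cells and 0 of 2 matched cells had Spp1.

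Positive cells carried an expression pattern beyond the genes that chose them. UMIs were summed per library over positive and over negative cells, and the 12 sums were fitted with edgeR's quasi-likelihood test with a term for the library. After the genes of the rule and mitochondrial genes were set aside, 199 of 9371 genes were higher (2.12%) and 93 lower (0.992%) in positive cells at a Benjamini-Hochberg adjusted p under 0.05. Every adjusted p given for this comparison is from that fit. Levels are given as CPM, the summed UMIs of a gene scaled to an equal library total with TMM factors. The positive sums held between 230096 and 645506 UMIs. Leaving out wild-type library 1 left 127 higher genes, and leaving out wild-type library 2 left 123. Barcodes that recur in another library were found in 155 gated cells, 5 of them positive, and without them 194 genes were higher and 89 lower. The p-values refer to these libraries and not to animals, since nothing says that each library came from its own animals. The estimate of spread is shared across genes by edgeR. For a gene whose libraries differ more than most, the SE and p-value can therefore understate that gene's own spread.

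Igf1, the insulin-like growth factor that microglia supply to the developing brain, had the largest fold change among genes that were higher in all 6 libraries and reached 20 CPM. In positive cells it stood at 199 and 175 in the wild-type, 51 and 41.7 in the ST2 Het and 213 and 121 in the ST2 KO libraries, in CPM. In cells with neither gene the same 6 libraries read 28.6, 29.8, 12.5, 10.9, 10.8 and 10.1 CPM. Every positive sum was above every negative sum, and the log2 fold change was 2.95 ± 0.17 (SE, adjusted p = 6.3e-17), or 7.71-fold. Lpl, the lipoprotein lipase that frees fatty acids from lipoproteins, was broadly expressed, at 180.2 to 213 CPM in cells with neither and 247 to 297 CPM in positive cells. It was higher in 6 of 6 libraries, by only 0.57 ± 0.08 (adjusted p = 2.0e-06). Of the 4 marker genes, Igf1 thus separated the classes by far more than Lpl, although neither took part in the choice of cells.

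Genes of fatty acid binding, lipid storage and sterol efflux were higher. Of 15 tested members of the lipid list, 9 were higher and none lower, with a median log2 fold change of 0.59 against -0.0015 over all genes tested. Fabp5 and Fabp3, carriers of fatty acids in the cytoplasm, were higher by 2.34 ± 0.18 (adjusted p = 2.5e-13) and 2.44 ± 0.30 (adjusted p = 6.1e-08). Over the libraries Fabp5 ranged from 11 to 22.1 CPM in negative cells and from 37.7 to 140.3 CPM in positive cells, with no overlap between classes. Plin2, the coat protein of lipid droplets, rose from 95.3 ± 14.7 to 197 ± 55 CPM (mean ± SD, n = 6 libraries, edgeR adjusted p = 2.2e-11). Abca1 and Abcg1, transporters that export cholesterol, rose by 1.08 ± 0.10 and 1.07 ± 0.15, each in 6 of 6 libraries. The apolipoprotein genes Apoe and Apoc1 behaved differently between libraries. Apoe, the main lipoprotein of the brain, was at 18595 and 16180.1 in the wild-type, 4450.2 and 5561 in the ST2 Het and 11074 and 11517 in the ST2 KO libraries in positive cells (CPM), against 6645, 6610.0, 4837, 4629, 4188 and 4406 CPM in cells with neither. It was well above its negative level in the wild-type and KO libraries and near its negative level in the Het libraries, and in ST2 Het library 1 it was lower. The fitted change over all 6 was 1.05 ± 0.11 (adjusted p = 6.7e-10, 5 of 6 libraries). That SE rests on a spread shared across genes and understates how far the Het libraries lay from the rest. Apoc1 rose by 2.66 ± 0.21 (adjusted p = 5.0e-13), also in 5 of 6 libraries, the exception being ST2 Het library 2.

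Genes reported in phagocytic microglia of development and in disease-associated microglia moved with them. Of 22 tested members of that list 19 were higher and none lower, with a median of 0.92. The list was drawn up with earlier results of these data known. Cd9 and Cd63, tetraspanins of the surface and of late endosomes, rose by 0.92 ± 0.05 and 0.85 ± 0.06 in 6 of 6 libraries each. Cd9 ranged from 931 to 1296 CPM in negative cells and from 1751 to 2283 CPM in positive cells, again without overlap. Cst7, an inhibitor of cysteine proteases, rose by 1.88 ± 0.24 from a mean of 8.77 to 31.2 CPM. Csf1, a ligand of the receptor on which microglia depend, rose by 1.33 ± 0.22, and the galectin Lgals1 and the annexin Anxa5, which binds phosphatidylserine, by 1.44 ± 0.12 and 1.23 ± 0.13. Lyz2, lysozyme, rose by 1.40 ± 0.09 (adjusted p = 2.7e-16) in 6 of 6 libraries, although its ranges over libraries, 229 to 585 CPM in negative and 423 to 1637 CPM in positive cells, overlapped. Other genes with large changes in all 6 libraries were Ank, a phosphate and citrate exporter (1.91 ± 0.18), the metal-binding protein Mt2 (1.58 ± 0.20), the syndecan Sdc4 (1.24 ± 0.15), the chloride channel relative Ttyh2 (1.19 ± 0.23), the membrane protein Fam26f (1.53 ± 0.27) and Gm1673 (1.57 ± 0.14).

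**Figure D2:**
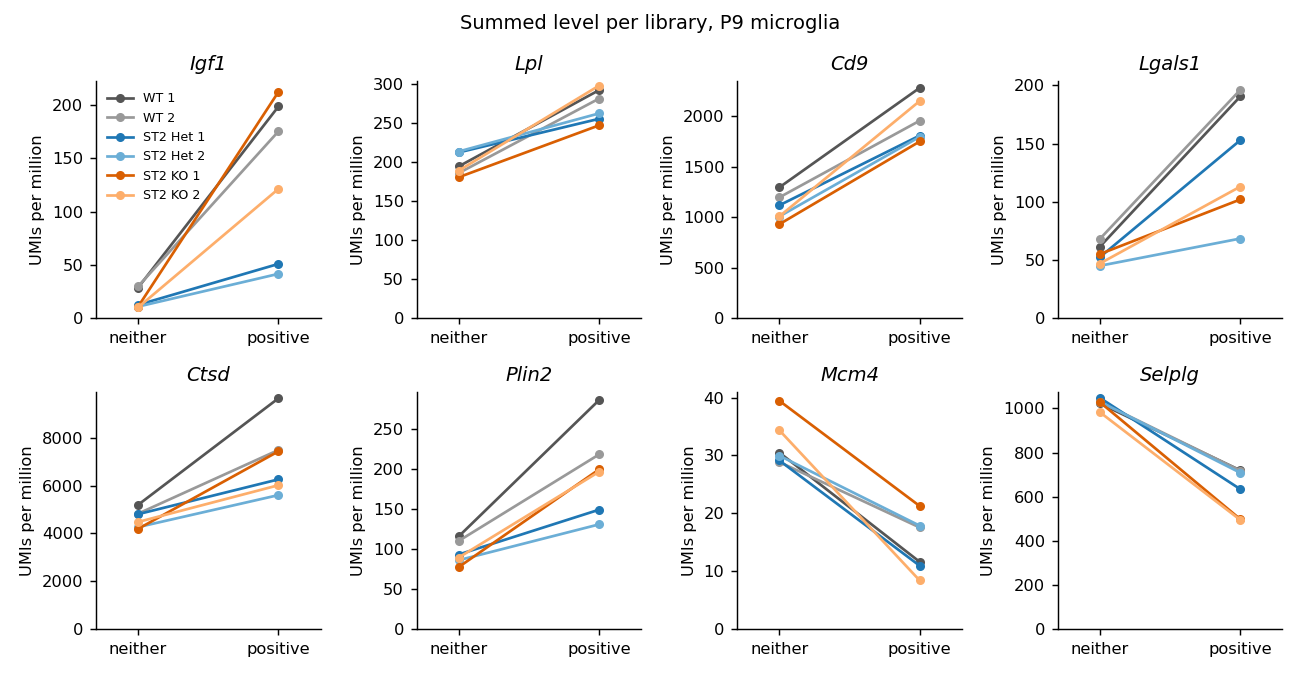
CPM (UMIs scaled to an equal library total, with TMM factors) of 8 genes in the UMI sums of cells with neither Spp1 nor Gpnmb (left of each panel) and of positive cells (right), with a line and a colour for each of the 6 P9 libraries. All 6 lines rise for Igf1, Lpl, Cd9, Lgals1, Ctsd and Plin2 and fall for Mcm4 and Selplg, and Igf1 in positive cells is lowest in the 2 ST2 Het libraries.

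Lysosomal genes were higher by smaller amounts. The proteases Ctsb, Ctsd and Ctsl, abundant in all microglia, rose by 0.71 ± 0.05, 0.68 ± 0.05 and 0.47 ± 0.06 in 6 of 6 libraries, and Pld3, a lysosomal nuclease, by 1.00 ± 0.11. In a separate list of lysosomal enzymes and membrane proteins, 12 of 30 tested members were higher and none lower, with a median of 0.22. Gaa, the glycogen-degrading glucosidase, was among the largest at 0.74 ± 0.14 (adjusted p = 4.3e-04). Creg1, a soluble lysosomal protein, rose by 0.50 ± 0.08.

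Transcription factors of the MiT/TFE family bind the E-box TCACGTGA near the start of many lysosomal genes, and the promoters of the called genes were searched for these letters in the 250 bases before each start (RefSeq, GRCm38.p6). The motif is its own reverse complement, so both strands are covered, and it contains the shorter E-box CACGTG. It occurred in 9 of 152 higher genes that had a promoter in the table (5.92%), in 2 of 73 lower genes (2.74%) and in 245 of 27025 genes overall (0.907%). The 27025 genes were not limited to those tested in these cells, so they are no matched background. Other motifs were searched too. CACGTG was in 16.4% of higher, 9.59% of lower and 6.86% of all genes. In the same order TCATGTGA was in 1.97, 0 and 0.984%, and TGACTCA in 7.89, 4.11 and 5.16%. Below, the motif means TCACGTGA. The matches describe letters only and show no binding. The 5 sequences shown are from 3 lysosomal proteases that were higher (Ctsd, Ctsa and Dpp7), the lysosomal transporter gene Mfsd1 with the match nearest its start, and the homeostatic gene Siglech, which was lower, with the motif in capitals. They were picked for their link to lysosomes or microglial identity. The other higher genes with the motif were Amdhd2, Arl2, Bax, Igf2bp3 and Tnfaip3, and the other lower gene was Asb2.
Ctsd, chr7:142387909-142387936, minus strand: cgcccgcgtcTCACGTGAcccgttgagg
Ctsa, chr2:164833750-164833772, plus strand: gagcaaactgTCACGTGAtgcag
Dpp7, chr2:25356389-25356416, minus strand: cgccagactaTCACGTGAtgctgccccg
Mfsd1, chr3:67582739-67582766, plus strand: acacacgtgaTCACGTGAgtgctgccgc
Siglech, chr7:55768117-55768144, plus strand: tgctgggcttTCACGTGAtctctgcaga
Ctsd, Ctsa, Dpp7 and Mfsd1 were higher in positive cells by 0.68, 0.36, 0.89 and 0.32 on the log2 scale, and Siglech fell by 0.25. The motif therefore stood in promoters of both directions. No copy was found in the same window before the starts of Spp1 or Gpnmb.

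Homeostatic genes were lower without being lost. Of 20 listed and tested genes 11 were lower and none higher (median -0.20). P2ry12, the ADP receptor that guides microglial processes, was at 2419 to 3023 CPM in positive cells against 4313 to 4670.0 CPM in cells with neither, a change of -0.59 ± 0.05 (adjusted p = 1.7e-12) with no overlap between classes. Tmem119 fell by 0.56 ± 0.06, and Selplg, the ligand of P-selectin, by 0.60 ± 0.06, both in 6 of 6 libraries. Both stayed well above 0 in every positive sum, and in that respect the positive cells kept their microglial markers.

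Cell cycle genes divided by phase. Of 21 DNA replication genes 6 were lower and none higher (median -0.50), while of 30 mitosis genes 7 were higher and none lower (median 0.34). The helicase subunits Mcm3, Mcm4 and Mcm5 fell by 0.63 ± 0.14, 1.00 ± 0.23 and 0.60 ± 0.17, and the replication clamp Pcna by 0.53 ± 0.11, each in 6 of 6 libraries. Among called genes with at least 20 CPM in negative cells and a fall in 6 of 6 libraries, the 10 largest falls included that of Mcm4. Also among them were Cdt1, which licenses replication origins, Ccne1, the cyclin of S-phase entry, and the late G1 and S genes Tcf19, Wdr76 and Fignl1, at -0.95 ± 0.25, -1.16 ± 0.33, -1.06 ± 0.22, -1.03 ± 0.24 and -0.93 ± 0.27. These rest on few molecules, with 20 to 41 UMIs per gene over all positive cells. The remaining genes of those 10 were Spint1, an inhibitor of serine proteases (-1.18 ± 0.27), Patz1 (-1.05 ± 0.27), Lrba (-1.03 ± 0.20) and Golim4 (-0.82 ± 0.23). Cyclin B2 (Ccnb2) and Cdc20, an activator of mitotic exit, rose by 0.81 ± 0.13 and 0.73 ± 0.17 in 5 of 6 libraries. The share of dividing cells, with at least 3 cycle UMIs of 1000, did not follow in 1 direction. It was 25 against 34.6% in wild-type library 1 and 39.7 against 34.0% in wild-type library 2, and the mean difference over the 6 libraries was -0.51 points (two-sided exact sign-flip permutation test, p = 0.84). In cells thinned to 1000 UMIs, Mcm3, Mcm5 and Cdc20 had the opposite sign and did not pass, in a fit whose median over all genes was -0.26. Leaving out wild-type library 1 alone lost the calls of Mcm3 (-0.56), Mcm4 (-0.93) and Wdr76 (-0.85), and leaving out Het library 1 alone that of Cdc20 (0.46). Ccne1, Cdt1, Fignl1, Golim4, Mcm5 and Patz1 lost theirs without each of several libraries. Without dividing cells, 0 of 20 replication and 0 of 10 mitosis genes tested were called by edgeR, and Mcm4 changed by -0.60 (adjusted p = 0.64). Dividing cells were set by the UMIs of these same 2 lists. Few calls were thus built into that fit, and it cannot tell where the differences arose.

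Energy and inflammatory genes moved in part. Of 18 glycolysis genes 7 were higher and 1 lower (median 0.28). The enzymes Aldoa and Gapdh rose by 0.52 ± 0.09 and 0.40 ± 0.05, and Ldhb, the lactate dehydrogenase subunit B, fell by 0.29 ± 0.08. Of 49 nuclear-encoded respiratory chain genes 5 were higher and none lower (median 0.12), with Cox7b at 0.38 ± 0.08. Among NF-kB targets and chemokines 5 of 20 were higher. The chemokine Ccl3 was at 226 to 613 CPM in positive and 132 to 214 CPM in negative cells, higher in 6 of 6 libraries (1.21 ± 0.12), and its relative Ccl4 rose by 1.03 ± 0.15 with 4 of 6 libraries higher. Of 11 iron genes 3 were higher, namely the ferritin light chain Ftl1 (0.73 ± 0.05), the ferritin heavy chain Fth1 and the haem oxygenase Hmox1 (0.79 ± 0.12).

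Markers of other cell types were found in both classes, with the border macrophage sum the largest. The summed level of the 12 border macrophage markers, 6 of which the gate limits, was 190.0 to 346 CPM in positive and 189 to 329.6 CPM in negative cells over the 6 libraries. Within each library it was higher in positive cells, by the least in ST2 Het library 1 (190.0 against 189 CPM) and by the most in ST2 KO library 2 (344 against 232 CPM). In cells with 2 or more Spp1 and Gpnmb UMIs it was 235 to 482 CPM, the highest in ST2 KO library 2. There it was above the negative sum of the same library except in wild-type library 2 (325 against 329.6 CPM). Its part in the other differences was not tested beyond the limit on border genes given next. The monocyte sum was 13 to 116 against 27.3 to 35.5 CPM, and the neutrophil sum 0 to 119 against 0 to 139 CPM. The monocyte value of 116 CPM was that of wild-type library 2, with 75 UMIs, of which 3 were in cells with 2 or more Spp1 and Gpnmb UMIs. A UMI of at least 1 of the 6 gate genes was found in 29.4, 36.0 and 34.6% of cells with 1, 2 to 4 and 5 or more Spp1 and Gpnmb UMIs, and in 21.8% of cells with neither. Folr2, a folate receptor used as a border macrophage marker, was the single member of 3 tested that was called, at 1.93 ± 0.24 (adjusted p = 6.7e-08). When both classes were limited to cells with no UMI of the 6 genes, Folr2 was still higher by 2.12, Apoe by 0.86, Igf1 by 2.92 and Lyz2 by 1.28 on the log2 scale. In that set 129 genes were higher and 62 lower, of which 124 and 48 were among those called before.

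Pooled over libraries, the pattern was graded with the amount of Spp1 and Gpnmb in the cell. In cells with 0, 1, 2 to 4 and 5 or more UMIs, Igf1 stood at 19, 63.6, 241 and 389 CPM of summed UMIs pooled over libraries, without TMM scaling. Apoe stood at 5383, 9477, 16484 and 23474 CPM, Fabp5 at 17.3, 44.7, 100.2 and 250.6 CPM, Ctsb at 3724, 4809, 7955 and 9688 CPM and Lpl at 192, 226, 338 and 422 CPM. P2ry12 fell along the same steps, at 4343, 3224, 2606 and 1650.5 CPM, as did Tmem119, at 1212, 941, 646 and 411 CPM. The steps did not hold in every library. In ST2 Het library 1 Apoe went through 4787, 3478, 4209 and 12178 CPM and Igf1 through 12.4, 11.04, 0 and 356 CPM, and in ST2 Het library 2 Apoe went through 4715, 5973, 3114 and 9602 CPM. In ST2 KO library 1 Igf1 went through 10.7, 21.1, 655 and 344 CPM and Apoe through 4174, 5428, 24493 and 15123 CPM. Fabp5 in wild-type library 1 went through 19.6, 52.9, 73.7 and 58.1 CPM. Of these bins the thinnest held 4 to 9 cells a library in the Het and KO libraries. Pooled Cd9 levelled off, at 1103, 1596, 2879 and 2783 CPM. Median depth also climbed, from 4481.5 to 4877.5, 5148 and 5672 UMIs per cell. The single-UMI cells already differed from cells with neither. Alone, they had 44 of 9412 genes higher (0.467%) and 23 lower (0.244%), with 44 and 22 of these among the genes called for all positive cells. They are 282 of the 409 positive cells, and the negative sums are the same. That overlap is therefore largely built in and is no separate support. In the single-UMI cells Igf1 was higher by 1.60 (edgeR adjusted p = 7.9e-07), Apoe by 0.48 and Cd9 by 0.54. P2ry12 changed by -0.49, and Lpl did not pass the test (0.22, edgeR adjusted p = 0.55). Cells with 2 or more UMIs differed again from single-UMI cells, with 71 of 2494 genes higher (2.85%) and 16 lower (0.642%), Igf1 by 2.40, Ctsb by 0.95 and Lpl by 0.82. Against cells with neither gene, the cells with 2 or more UMIs had 155 genes higher (1.69%) and 167 lower (1.82%). Igf1 was higher there by 4.05 (edgeR adjusted p = 3.9e-87). That p-value rests on the spread that edgeR shares across genes and is no measure of Igf1's own spread over libraries. Against negative cells with the same UMI totals, Igf1 was higher by 2.28, Fabp5 by 2.06 and Cd9 by 0.81, and P2ry12 changed by -0.53 (all with adjusted p of 1.7e-05 or less in edgeR).

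**Figure D3:**
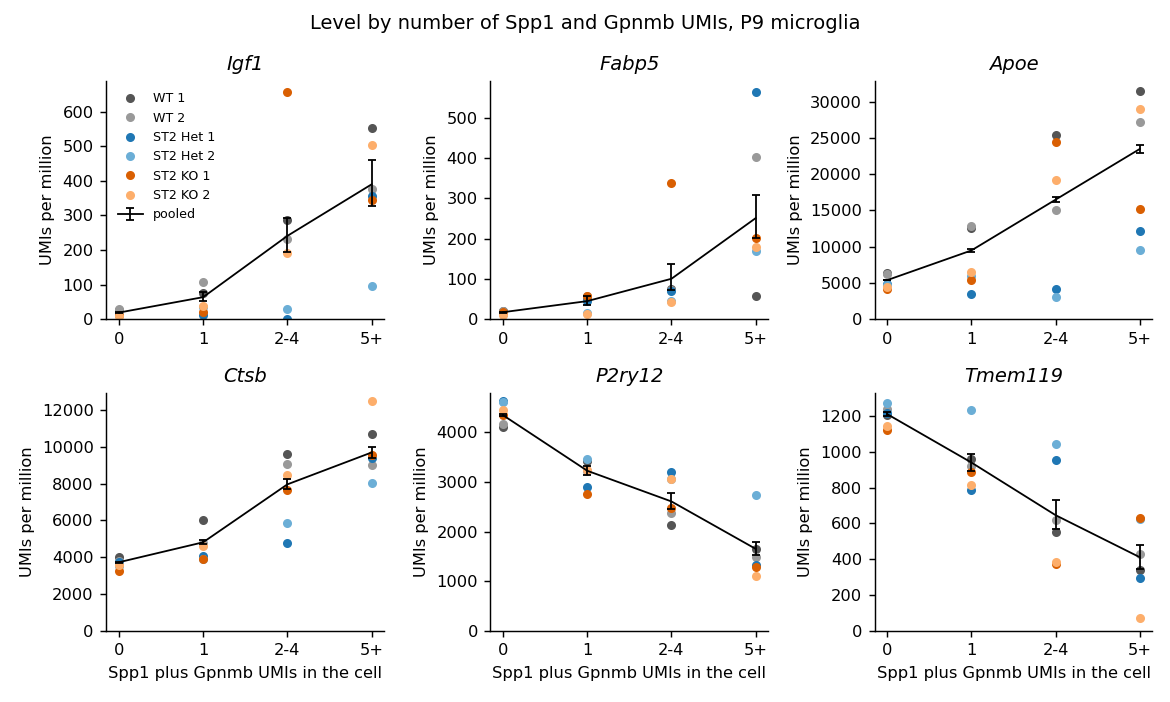
CPM of summed UMIs (no TMM scaling) of 6 genes in P9 microglia with 0, 1, 2 to 4 and 5 or more UMIs of Spp1 plus Gpnmb; points are libraries, and the black line is the pooled value with its exact Poisson 95% interval, which covers counting error only. Pooled Igf1, Fabp5, Apoe and Ctsb climb and P2ry12 and Tmem119 fall at every step, while single libraries depart from these steps. Apoe in the 2 ST2 Het libraries lies under the pooled line at 1 or more UMIs. Both ST2 KO libraries also lie under it at 1 UMI, and ST2 KO library 1 at 5 or more.

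Cells with Spp1 alone and cells with Gpnmb alone could be compared in 4 libraries, with only 15 cells in the second class over all 6 libraries. Of 1789 genes tested, 0 (0%) were higher and 1 (0.0559%) lower in Spp1-only cells by edgeR, with 64 at an unadjusted p under 0.05, and DESeq2 called 0. The lower gene was Igf1, at -2.58 ± 0.48 (adjusted p = 1.3e-04). Its call was lost without wild-type library 2 (-2.01) and without ST2 KO library 1 (-1.90).

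The next comparisons asked whether the positive state depended on ST2. Il1rl1 itself was found at 5.39 and 6.44 CPM in gated cells of libraries labelled ST2 Het and at 7.38 and 5.98 CPM in those labelled ST2 KO, on 28 to 46 UMIs a library. Those 3' counts do not separate the labels, and where the allele is altered is not given in the sources used here, so genotypes are given as labelled. After thinning, positive cells were 1.83 and 1.49% of microglia labelled ST2 KO and 0.476 and 1.36% of those labelled ST2 Het. The difference of 0.74 points had an exact permutation p of 0.333, the smallest that 2 libraries against 2 allow. Over all gated microglia Spp1 was at 19.2 and 23.4 CPM in Het and 32.6 and 32.7 CPM in KO (log2 difference 0.63 ± 0.30, edgeR adjusted p = 0.55). At about the same difference Spp1 passed with the replicate block (adjusted p = 7.7e-04), without the low-count filter (8.1e-05) and without wild-type library 1 (0.048), and not with DESeq2 (1) or without any other library. Gpnmb had 2 and 2 UMIs in Het and 12 and 4 in KO (adjusted p = 0.28, and 0.010 without the low-count filter), and Lpl did not pass either (-0.17 ± 0.06, adjusted p = 0.42). In that fit over all gated microglia 23 of 11401 genes were higher (0.202%) and 22 lower (0.193%) in KO.

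Within positive cells, 19 of 4390 genes were higher (0.433%) and 5 lower (0.114%) in ST2 KO than in ST2 Het libraries (edgeR, 2 libraries each, with the wild-type libraries sharing the estimate of spread). Apoe was at 11296 ± 313 against 5006 ± 786 CPM (mean ± SD, n = 2), a log2 difference of 1.18 ± 0.10 (edgeR adjusted p = 2.8e-06), and at 17388 ± 1708 CPM in the wild-type libraries. Igf1 was higher by 1.86 ± 0.33 (adjusted p = 0.011), Folr2 by 2.54 ± 0.51 and Sepp1, a selenium transport protein, by 0.64 ± 0.11. Mthfsl (2.10 ± 0.46) and Gm1673 (1.65 ± 0.34) were also among the largest. Several of the others were ribosomal protein genes or their near-identical copies, whose UMIs cannot be assigned with certainty. The 5 lower genes were Gem, Ier2, Nfkbia, Egr1 and Jun, genes that respond quickly to stimulation, at -2.01 to -1.18. Jun was also lower in negative cells, at 399 and 399.8 CPM in KO against 638 and 628 CPM in Het libraries. DESeq2 called 5 higher and 3 lower. Without ST2 KO library 1, a library with redo in its barcode names, the Igf1 difference was 1.41 (adjusted p = 0.18), and the calls of Folr2 and Ccl6 were lost without Het library 1, those of Ccl6 without KO library 2, those of Gm1673, Lyz2, Mthfsl, Gem and Egr1 without Het library 2, and those of Lyz2, Mthfsl, Gem and Egr1 without KO library 1. Apoe passed without each of the 6 libraries in turn (1.03 to 1.37).

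The size of the step from negative to positive cells itself differed by genotype label for 11 genes. In the interaction test 10 of 9371 genes (0.107%) had a larger log2 fold change in KO than in Het libraries and 1 (0.0107%) a smaller one. For Apoe the ratio of positive to negative cells was 2.64 and 2.61 in the KO, 0.920 and 1.20 in the Het and 2.80 and 2.45 in the wild-type libraries, so both Het libraries lay below the other 4. The wild-type libraries are of another date in the titles. The interaction was 1.31 ± 0.09 (edgeR adjusted p = 2.7e-14). Its SE comes from a spread shared across genes and does not reflect the gap between the Het ratios. The interaction also rests on few cells. Without TMM scaling, Apoe in single-UMI cells was at 5428 and 6493 CPM in KO and 3478 and 5973 CPM in Het libraries. At 2 to 4 UMIs of Spp1 plus Gpnmb it was at 24493 and 19185 CPM in KO (8 and 7 cells). The Het libraries had 4209 and 3114 CPM there (8 and 10 cells). At 5 or more UMIs the values were 15123 and 29044 CPM in KO and 12178 and 9602 CPM in Het. For Igf1 the ratios were 19.7 and 12 in KO, 4.08 and 3.83 in Het and 6.94 and 5.89 in wild-type libraries (1.99 ± 0.39, adjusted p = 0.0094). Other large differences, of few molecules, were those of the chemokine Ccl7 (3.57 ± 0.69), Apoc1 (2.80 ± 0.50), Folr2 (2.63 ± 0.57) and Ccl6 (1.12 ± 0.24), larger in KO, and Egr1 (-1.29 ± 0.26), smaller in KO. In the positive cells of ST2 Het libraries 1 and 2, Ccl7 had 1 and 4 UMIs, Folr2 1 and 8 and Apoc1 11 and 3. Egr1 was at 0.488 and 0.502 times its negative level in KO and at 1.12 and 1.26 times in Het libraries. The Het libraries had 41 and 51 positive cells and the KO libraries 35 and 34, of which 4, 9, 5 and 4 had 5 or more UMIs. Leaving out ST2 KO library 1 took Igf1 to 1.60 (adjusted p = 0.91), and leaving out KO library 2 took Ccl7 to 1.36 (adjusted p = 0.86). Lyz2 and Sepp1 lost their calls only without KO library 1 (0.86 and 0.52). Apoc1, Ccl6, Ccl7, Ctsb, Ctsl, Egr1, Folr2 and Igf1 lost theirs without each of 3 or more libraries, wild-type library 2 among them in every case. Of the 11 genes only Apoe remained called without each of the 6 libraries in turn, at 1.13 to 1.5.

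The genes of the positive cells were then read in the TMRM-sorted libraries, none of whose values took part in the choice of the cells. These hold FPKM (fragments scaled to transcript length and to the mapped fragments), so read depth is unknown. They were compared with limma on log2(FPKM + 1), a scale that understates changes of low genes. All differences and adjusted p-values here are from that fit. Spp1 was at 1667, 2111 and 2822 FPKM (lowest, median and highest) in the TMRM-high libraries against 29.9, 72.7 and 140.3 FPKM in the TMRM-low libraries (4.93 ± 0.20, adjusted p = 7.6e-13). Gpnmb was at 80.9, 95.5 and 111 FPKM in the TMRM-high libraries against 0.626, 1.14 and 3.99 FPKM in the TMRM-low libraries (5.38 ± 0.16, adjusted p = 5.4e-15). Neither gene overlapped between the groups, and both medians were far lower in TMRM-low cells. Igf1 was at 85.7, 95.1 and 108 FPKM in the TMRM-high libraries against 8.70, 12.4 and 13.7 FPKM in the TMRM-low libraries (2.90 ± 0.08, adjusted p = 2.9e-15), again without overlap. Lpl was at 124, 153 and 165 FPKM in the TMRM-high libraries against 54.9, 63.3 and 75 FPKM in the TMRM-low libraries (1.24 ± 0.07, adjusted p = 1.3e-10), the smallest difference of the 4 markers, and Lpl also differed less than Igf1 between the single-cell classes. P2ry12 and Tmem119 were lower in TMRM-high cells, by 0.65 ± 0.08 and 1.03 ± 0.06, and no library of one group reached the range of the other. The share of all genes tested whose groups do not overlap was not counted, so lack of overlap is a description here and below. In bulk samples, fewer cells of a type and less RNA per cell cannot be told apart.

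**Figure D4:**
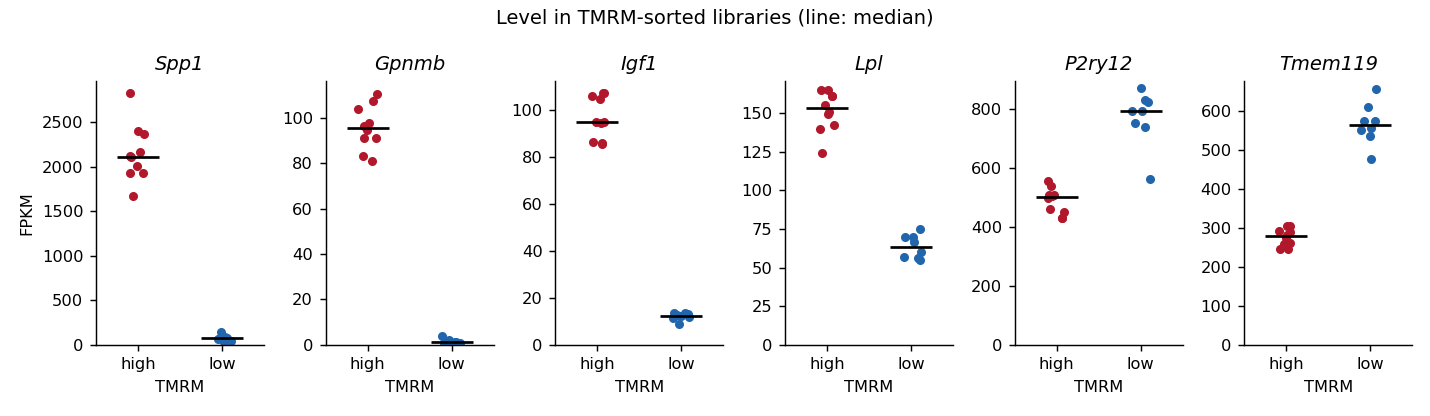
FPKM of the 4 marker genes and of P2ry12 and Tmem119 in each TMRM-high (n = 10) and TMRM-low (n = 8) library of P9 cortical microglia, with the median as a line. The 4 markers are higher and the 2 homeostatic genes lower in TMRM-high libraries, without overlap of the groups. How many of all genes tested lack overlap was not counted.

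Most genes called in the positive cells differed in the same direction between TMRM-high and TMRM-low libraries. Of 10714 genes tested, 2189 (20.4%) were higher and 1054 (9.84%) lower in TMRM-high. Of the 199 genes higher in positive cells 192 were tested, and 164 of them (85.4%) were higher and 2 lower, with a median log2 difference of 0.69 against 0.06 over all genes. Of the 93 lower genes 86 were tested, and 52 (60.5%) were lower and 5 higher, with a median of -0.37. The 2 higher genes that went the other way were Hmox1 (-0.72 ± 0.12, adjusted p = 8.9e-05), which degrades haem, and Atf3, a stress-induced transcription factor (-0.29, adjusted p = 2.8e-04). The 5 lower genes that went the other way were the replication and S-phase genes Fignl1, Mcm3, Mcm5, Rpa2 and Tcf19. These 7 genes were named after their values were seen. Fabp5, Apoe, Ctsb and Cd9 were higher in TMRM-high libraries by 2.72, 1.36, 1.26 and 1.36, without overlap. Of the 25 genes named by rule in the single cells, Ccl3 had a small difference of 0.29 ± 0.10, adjusted p = 0.028, and the groups overlapped.

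**Figure D5:**
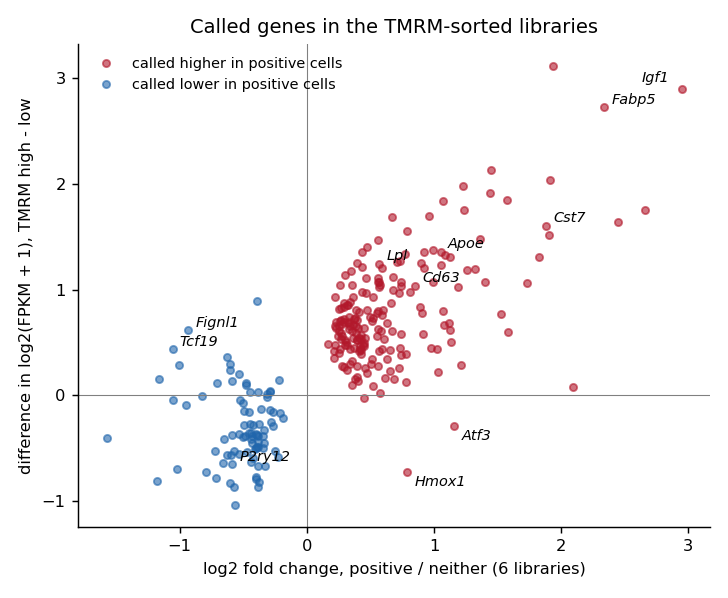
Log2 fold change of positive over negative P9 microglia (6 single-cell libraries) against the difference in log2(FPKM + 1) between TMRM-high and TMRM-low bulk libraries, for the 278 genes called in the single cells and tested in both. Of the 192 higher genes (red) 164 were called higher in TMRM-high libraries, Hmox1 and Atf3 were called lower, and of the 86 lower genes (blue) 52 were called lower.

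The lists were also read in the TMRM libraries, where 20.4% of all genes were higher and 9.84% lower, against 2.12 and 0.992% in the single-cell fit, so counts from the 2 fits are set side by side and not compared. All 29 tested genes of the phagocytic list were higher in TMRM-high libraries (median 1.36), and 19 of 22 in positive cells, where fewer members were tested. That list was drawn up with earlier results of these data known, so its counts are no independent support. Of 30 mitosis genes 30 were higher, and of 21 replication genes 12 were higher and none lower, whereas 6 replication genes were lower in positive cells. Of 49 respiratory chain genes 45 were higher, and 5 in positive cells. Of 20 homeostatic genes 15 were lower and none higher. The border macrophage markers also moved, with 7 of 12 higher and a summed level of 226 to 347 FPKM in TMRM-high against 65.1 to 166 FPKM in TMRM-low libraries. Neutrophil markers moved the other way, with 6 of 8 lower and sums of 0.431 to 782 against 643 to 2308 FPKM. Neuron markers were lower too, 3 of 3 tested, with sums of 1.65 to 4.00 against 9.51 to 52.2 FPKM and no overlap. Monocyte sums were 6.26 to 27.7 against 25.98 to 81.5 FPKM (2 of 3 tested lower), and choroid plexus sums 30.8 to 118 against 116 to 34359 FPKM (1 of 3 tested lower). The part of these markers in the result was not tested. The border marker Folr2 was at 78.2, 87.8 and 99.3 FPKM (lowest, median and highest) in the TMRM-high libraries against 4.70, 8.90 and 22.2 FPKM in the TMRM-low libraries.

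In the Tau-GFP libraries, where cells were sorted for GFP made in neurons, most genes higher in positive cells were higher on the GFP-positive side as well. How the sorted cells came to carry GFP was not tested. With edgeR on the rounded expected counts, 2516 of 12138 genes were higher (20.7%) and 2054 lower (16.9%) in GFP-positive cells. Of the 199 genes 193 were tested, with 118 (61.1%) higher and 6 lower, and of the 93 lower genes 89 were tested, with 62 (69.7%) lower and 4 higher. Igf1 was at 138, 157 and 254 CPM (lowest, median and highest) in the GFP-positive libraries against 27, 34.5 and 40.0 CPM in the GFP-negative libraries (edgeR, 2.36 ± 0.13, adjusted p = 7.5e-10). Spp1 was at 30.7, 81.2 and 351 CPM in the GFP-positive libraries against 2.86, 6.68 and 87.2 CPM in the GFP-negative libraries (edgeR, 2.80 ± 0.68, adjusted p = 0.0035), and its groups overlapped. Gpnmb overlapped too, with medians of 28.4 and 3.00 CPM (edgeR, 3.05 ± 0.72, adjusted p = 0.0027). Lpl did not pass (0.18 ± 0.11, adjusted p = 0.23), nor did Cd9 (0.10 ± 0.08, adjusted p = 0.36), although both were higher in positive cells and in TMRM-high libraries. All 12 border macrophage markers were higher in GFP-positive libraries, with a sum of 3085 to 8636 against 482 to 782 CPM, as were 8 of 8 tested neuron markers (123 to 313 against 7.12 to 31.9 CPM). Higher too were 7 of 7 mural markers (49.7 to 329 against 6.24 to 36.7 CPM), 7 of 8 astrocyte markers (105 to 374 against 68.9 to 141 CPM), 5 of 8 endothelial markers (62.2 to 3342 against 74.2 to 464 CPM) and 2 of 2 tested markers of oligodendrocyte precursors (28.1 to 60.7 against 0.448 to 14.9 CPM). The part of all these markers in the differences was not tested.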

How the data were processed

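Single-cell values are UMI counts per gene and cell, deposited by the authors as a 10x matrix made with Cell Ranger on mm10, per the submitters' processing notes. TMRM libraries are FPKM values the authors made with TopHat2 2.0.10 and Cufflinks 2.0.2, and Tau-GFP libraries are expected counts the authors made with Bowtie2 and RSEM, per the same notes. Versions of the other tools are not given in the sources used, and nothing says whether doublets were removed. The deposited FPKM values carry no read depth, and in 1 TMRM-high library (replicate 8) the listing ends early on chromosome X. Another 5 columns of the expected count table match no sample and were not used.

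UMIs were summed per library and class, and genes were tested with edgeR 4.0.16 (quasi-likelihood, TMM, filterByExpr, library as a term, R 4.3.3). Expected counts were rounded (7996940 to 11285800 a library) and tested the same way, and FPKM with limma 3.58.1 on log2(FPKM + 1) over genes with a mean of at least 1. All adjusted p-values are Benjamini-Hochberg over all genes tested, with 0.05 as threshold. Shares were thinned with a fixed seed, and DESeq2 1.42.0 was an alternative. The steps were tested on simulated data. No doublet caller was run. Named genes were the list members and, for positive against negative cells, among called genes at a mean of 20 CPM or more and of 1 direction in 6 of 6 libraries, the 15 largest rises and 10 largest falls. For the genotype tests they were the 5 largest calls in each direction, not all of which are reported here. The members and lists were chosen with earlier results of these data known. The planned set of non-microglial cells for setting free RNA held 0 cells at P9. Same-numbered libraries were not shown to be pairs.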

Additional observations from a re-analysis of the deposited data

Results flagged for a closer look

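Libraries far from the rest of their group were looked for in 40 combinations of gene and bulk group, and 8 were found. Chance alone marks about 1 in 20 groups, the genes of 1 library are not independent, and no cause was tested. In TMRM-low cells, Gpnmb was at 3.99 FPKM in replicate 1 (group median 1.14), far below every TMRM-high library. TMRM-low replicate 3 had Apoe at 8620.0 FPKM (median 5139) and P2ry12 at 562 FPKM (median 793), both on the side of the TMRM-high libraries. In TMRM-high cells, Cd9 was at 833 FPKM in replicate 2 (median 950.1). In Tau-GFP-negative cells, Spp1 was at 87.2 CPM in replicate 2 (median 6.68), above the median of the GFP-positive libraries, Apoe at 3301 CPM in replicate 8 (median 4195), and Ctsb and Tmem119 at 7136 and 3117 CPM in replicate 6 (medians 5912 and 2598).

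The step from negative to positive cells differed between the ST2 KO and ST2 Het labels by the edgeR interaction test for 11 genes. It was larger in KO for Apoe (1.31 on the log2 scale), Apoc1 (2.80), Folr2 (2.63), Igf1 (1.99), Lyz2 (0.99), Ctsb (0.42), Ctsl (0.52), Ccl7 (3.57), Ccl6 (1.12) and Sepp1 (0.68), and smaller for Egr1 (-1.29).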

How the results depend on the processing

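The 409 positive cells yield 230096 to 645506 UMIs a library, which limits calls for genes of low level, and 282 of them rest on 1 UMI. Of positive against negative cells (199 higher, 93 lower), the count of genes lower was 222 without the low-count filter, 49 with DESeq2 and 167 for cells with at least 2 UMIs. Counts higher and lower were 78 and 34 without the library term, 51 and 17 against depth-matched negative cells (51 and 16 of them also called before), and 17 and 28 in cells thinned to 1000 UMIs, where fewer genes and cells remain. With border genes under 1 UMI 129 were higher. Chosen after seeing the data, single-UMI cells gave 44 and 23, at least 2 against exactly 1 UMI 71 and 16, and the 2 wild-type libraries alone 108 and 19. The share of higher among all calls was 68.2%, and 38.2% without the filter, 37.8% thinned, 48.1% at 2 or more UMIs and 85.0% in wild-type libraries. Leaving out each library in turn gave 123 to 186 genes higher, with 67 to 83 lower. Thinning reversed Ccl4 (-0.49), Mcm3 (0.11), Mcm5 (0.048) and Cdc20 (-0.67), and Ccnb2 was -0.11 between at least 2 UMIs and 1. The median log2 fold change over all genes was -0.26 in the thinned fit and -0.0015 in the main fit. Signs in these 2 fits are thus not read from the same zero. The cause of the reversals was not tested.

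For Spp1-only against Gpnmb-only cells, 1 gene was higher and 0 lower without the filter, 0 were lower with DESeq2 and 0 without the library term, and leaving out libraries gave 0 to 1 higher and 0 to 6 lower. ST2 KO against Het in positive cells gave 50 and 19 without the filter, 5 and 3 with DESeq2, 51 and 14 with the replicate block, and 11 to 60 and 4 to 19 without 1 library (11 and 4 without KO library 1, 60 and 12 without KO library 2, 58 and 19 without wild-type library 2). Over all microglia these were 265 and 112, 35 higher (DESeq2), 255 and 88 (replicate block), and 5 to 118 and 7 to 28 (5 and 7 without Het library 2, 118 and 25 without KO library 2). Differences by genotype numbered 20 and 8 without the filter, and 3 to 7 and 0 to 4 without 1 library, the fewest (3 and 0) without wild-type library 2. The share difference of 0.74 points was 1.12 not thinned, 0.600 at 2000 UMIs, 0.439 for at least 2 UMIs and 0.299 to 1.18 without 1 library. In the TMRM libraries 688 genes were lower at a mean of at least 5 FPKM, 2027 were higher and 953 lower without TMRM-high replicate 8, and 1512 and 791 with the replicate block. With that block 148 of the 192 genes were higher and 2 lower. In the Tau-GFP libraries the block gave 2445 and 2092. Same-numbered libraries correlated at -0.16 to 0.14 (TMRM), -0.07 to 0.29 (Tau-GFP) and 0.10 (ST2), so the blocks describe numbers, not known pairs.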

Other observations

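Some gene groups had 0 calls or few between positive and negative cells, where 2.12% of all genes were higher and 0.992% lower, so that counts near 0 in groups of this size say nothing about their members. By edgeR, 0 of 20 cholesterol synthesis genes were called (median log2 fold change -0.36), 0 of 40 ribosomal protein genes (-0.05), 0 of 14 interferon-stimulated genes (0.05) and 0 of 22 genes of the IL-33 receptor, PI3K, AKT and mTOR (-0.07). Among 19 phagocytic receptors and bridging proteins, the complement receptor gene C3ar1 and the scavenger receptor gene Stab1 were higher and the integrin gene Itgam and the engulfment adaptor gene Elmo1 lower. Of 12 antigen presentation genes only H2-D1 was higher, and of 21 immediate early genes only Atf3. Of 8 MiT/TFE factors and regulators, Fnip2 and Rragc, which act on these factors at the lysosome, were higher. A miss at these depths does not show that the genes are alike.

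Cells removed by the border gate also held Spp1 or Gpnmb. Of 242 and 219 such cells in the wild-type libraries, 16 and 19 were positive (6.61 and 8.68%), above the shares of the gated microglia of the same libraries, at lower median depths of 3423 and 3736 UMIs. The ST2 Het and KO libraries had 15 to 26 such cells each, with 0 to 3 positive, too few to place a share. The difference between the cell classes was not tested.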
